A study of Mus musculus with 15 samples.

Results

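The glutamate synapse genes described here are 33 genes taken by symbol: 16 ionotropic receptor subunits and the delta receptor subunit Grid1, 7 metabotropic receptors, 2 vesicular glutamate transporters and 7 postsynaptic scaffold genes. They were among 54532 genes in the count table, and all 33 were among the 19259 genes that passed the filter on low counts. RNA was sequenced from the retina of wild-type C57BL/6 mice in 5 groups of 3 libraries each. WT was the intact retina. ONC was the retina 2 days after crush of the optic nerve on both sides under xylazine and ketamine. ONC-F, ONC-J and ONC-S were crushed in the same way and also needled 3 times, at the acupoint GB20, at the acupoint BL1 or at the sham point GV16. The methods state xylazine and ketamine again before needling at GB20 or BL1, and name no such added anaesthesia for ONC. Effects of needling and of that anaesthesia therefore cannot be told apart. The labels give an age of 5 weeks for all mice, and the methods of the study state another age. The methods divide the mice into fewer groups than the 5 sequenced, and the study's first list of sequenced groups does not name ONC-S. The methods do not detail the needling at GV16 or any handling of the ONC-S mice apart from the others. An effect of GV16 needling and an effect of separate handling therefore cannot be told apart. The methods speak of 3 mice in a group and of 3 repeats but do not say how many mice went into a library, so n counts libraries, and p-values measure the spread between libraries.

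Glutamate is the transmitter of photoreceptors, of bipolar cells and of the retinal ganglion cells (RGCs), whose axons form the optic nerve. In the dark, photoreceptors release glutamate steadily: OFF bipolar cells read it with AMPA and kainate receptors, which open cation channels, and ON bipolar cells read it with mGluR6, the metabotropic receptor encoded by Grm6, which closes a channel. Bipolar cells in turn excite amacrine cells and RGCs through AMPA and NMDA receptors, which are held at the synapse by scaffolds of the Dlg, Homer and Shank families.

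Total counts were 14482435 to 26112762 per library, and the 33 genes took 0.384% to 0.464% of them. Values are given as CPM, which are counts scaled to equal library size after TMM correction of that size. Comparisons come from the quasi-likelihood test of edgeR fitted to all 15 libraries. Its p-values were corrected for multiple testing after Benjamini and Hochberg, across every tested gene, and a gene was called at an adjusted p under 0.05. The libraries carried retinal RNA: Gnat1, the rod transducin subunit, was at 8594 to 10510 CPM. The RGC markers, all 18 of them measured, summed to 1195 to 1277 CPM in WT, 823 to 844 in ONC, 833 to 992 in ONC-F, 849 to 854 in ONC-J, while ONC-S had 875 to 905. In the test 14 of the 18 were lower in ONC than in WT. The upper end of the ONC-F range is replicate 3, which stood apart from the other crushed libraries in these markers. WT replicate 1 carried lens RNA, with Cryaa at 1305 CPM beside 0.738 and 2.54 CPM in the other WT libraries. ONC replicate 2 had the highest sum of microglia markers, 64.5 CPM beside 35.1 to 36.7 in WT. Calls of the members and of the other genes named were repeated without each library, and those that were lost are given.

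Compared per length, on the FPKM scale of the deposited values, the 33 genes spanned from 0.570 FPKM for Grm3, a receptor that dampens transmitter release, to 279 FPKM for Slc17a7, the vesicular transporter of photoreceptors and bipolar cells (means over 15 libraries). Dlg4, the main scaffold of the postsynaptic density, followed at 76.2 ± 8.22 FPKM (SD, n = 15). Grm6 was the most abundant receptor at 35.2 ± 6.06 FPKM. The next receptors were Grik5 at 22.2 ± 1.08 FPKM, Gria2 at 19.5 ± 3.09 FPKM, Grik1 at 17.0 ± 0.881 FPKM and Gria4 at 15.9 ± 0.861 FPKM, and neighbours among these receptors differed by less than the sum of their SDs. At the low end were Grin2a at 0.641 ± 0.127 FPKM, Grin3b at 0.665 ± 0.102 FPKM and Grik4 at 0.704 ± 0.108 FPKM. Variation over the 15 libraries was small for most genes: the coefficient of variation of CPM ran from 5.00% for Homer1 to 19.8% for Grin2a, and no gene differed by more than 2.38-fold between its highest and lowest library.

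**Figure D1:**
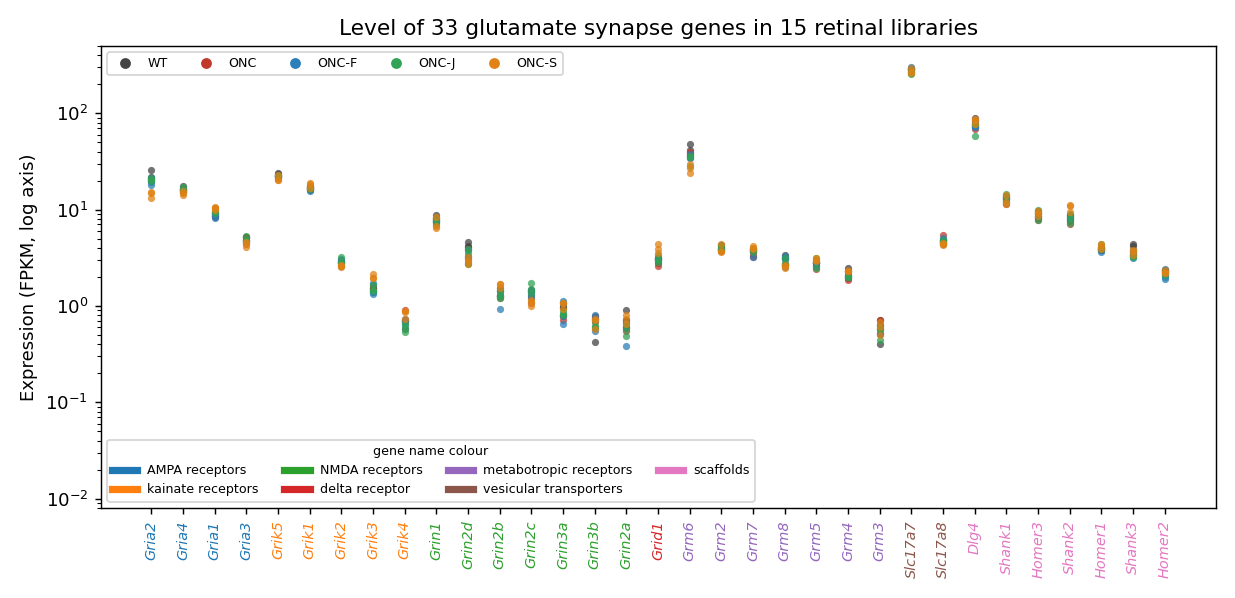
Level of each of the 33 genes in each of the 15 libraries, on a logarithmic FPKM axis, with genes ordered by role and by mean level and points coloured by group. Slc17a7 and Dlg4 stand above the other genes, Grm6 is the highest receptor, and in Gria2 the 3 ONC-S points lie below the other 12.

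Promoter sequences are shown for 3 members whose RNA fell in crushed retina (values follow), because they differ in base composition. The sequences are the 250 bases before the start of the gene from RefSeq on GRCm38.p6, the build also called mm10, written 5′ to 3′ on the strand of the gene, with each CpG in capitals. Of the 33 genes, 22 had an entry in that table of 32817 promoters. The promoter of Gria2, the AMPA receptor subunit that keeps calcium out of the channel, lies at chr3:80802836-80803085, minus strand, with 64.8% GC and 19 CpG. That of Grm6, which encodes mGluR6, lies at chr11:50850435-50850684, plus strand, with 47.6% GC and 4 CpG. That of Shank3, a scaffold gene, lies at chr15:89499358-89499607, plus strand, with 82.4% GC and 31 CpG.
Gria2: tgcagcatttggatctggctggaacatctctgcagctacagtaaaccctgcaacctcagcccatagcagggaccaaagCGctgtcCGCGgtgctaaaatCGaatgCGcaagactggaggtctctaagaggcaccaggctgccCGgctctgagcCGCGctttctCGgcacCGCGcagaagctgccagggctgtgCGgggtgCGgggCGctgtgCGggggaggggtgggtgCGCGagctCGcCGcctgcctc
Grm6: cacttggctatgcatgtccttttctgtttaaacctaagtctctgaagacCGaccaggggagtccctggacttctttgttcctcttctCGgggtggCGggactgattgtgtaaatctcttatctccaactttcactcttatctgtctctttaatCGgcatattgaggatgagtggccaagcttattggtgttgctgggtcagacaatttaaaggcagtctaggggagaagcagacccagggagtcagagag
Shank3: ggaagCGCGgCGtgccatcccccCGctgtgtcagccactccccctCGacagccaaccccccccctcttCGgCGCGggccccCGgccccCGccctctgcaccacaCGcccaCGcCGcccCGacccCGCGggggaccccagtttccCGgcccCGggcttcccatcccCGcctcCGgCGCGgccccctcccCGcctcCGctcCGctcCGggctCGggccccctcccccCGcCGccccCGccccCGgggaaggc
Over all promoters of the table the median was 52.4% GC and 6 CpG, so the Grm6 window was below the median in both and the other 2 above it. At least as many CpG as in Grm6 were held by 62.2% of all promoters, as many as in Gria2 by 19.7% and as many as in Shank3 by 5.20%. Both strands were searched for 5 motifs. The GC box GGGCGG was found at 4 places in the Shank3 window, and in neither other window, against 32.7% of all promoters with at least 1. The E-box CANNTG was found once in Gria2 and once in Grm6, against 66.2% of all promoters. The CRX and OTX2 site TAATCC, which photoreceptor and bipolar genes often carry, the CRE half-site TGACG and the AP-1 site TGANTCA were in none of the 3 windows, against 6.25%, 17.7% and 6.75% of all promoters. No matches of different motifs overlapped, and a match describes the letters only.

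The first comparison set crushed retina without needling against intact retina. The methods describe no surgery or anaesthesia for WT. Effects of the crush, of its surgery and of its anaesthesia therefore cannot be told apart in any comparison with WT. No member passed the test in ONC against WT, where 2.11% of all tested genes did (0.955% higher and 1.16% lower). Unadjusted p was under 0.05 for 7 of the 33, and DESeq2 on all libraries also called 0. The fitted changes were small and mostly downward: 25 of 33 were negative and 8 positive, with a median log2 fold change of -0.08 beside -0.0023 over all tested genes, and their range was -0.43 for Grin2a to 0.29 for Grin3b, of whose exon length the protein-coding gene Tmem259 covers 32.13% on the opposite strand. The 3 ONC libraries lay below all 3 WT libraries for 6 members (Gria2, Grin2a, Grin2d, Grin3a, Grm8 and Shank3) and above them for Grik4 and Homer1, while 8.92% of all tested genes lay below and 8.70% above in this way. In bulk retina, fewer cells of a type and less RNA per cell cannot be told apart.

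**Figure D2:**
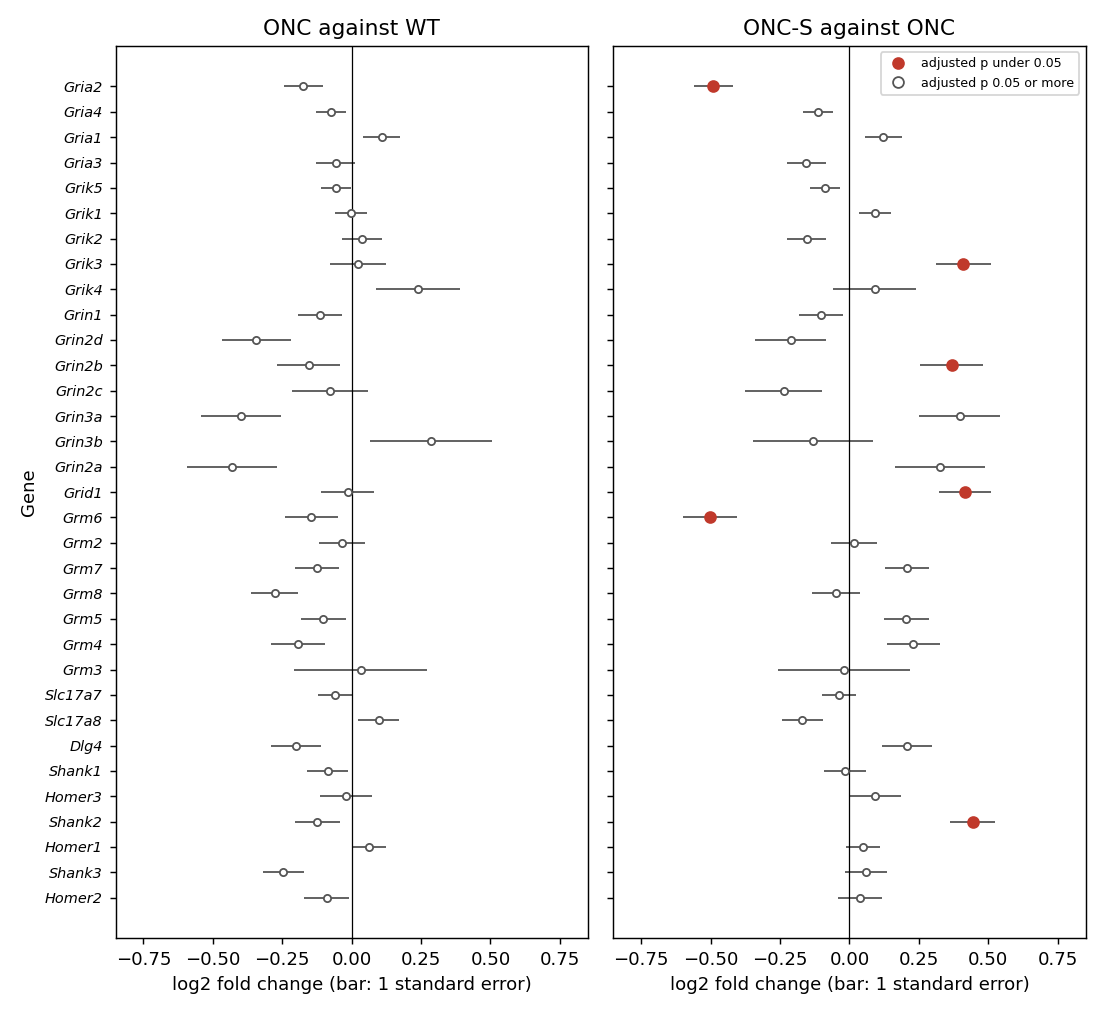
Log2 fold change of each of the 33 genes in ONC against WT (left) and in ONC-S against ONC (right). Bars are 1 standard error derived from the edgeR test, and filled points have an adjusted p under 0.05. No point is filled on the left, where 25 of 33 lie below 0, and 6 are filled on the right, with Gria2 and Grm6 below 0 and Grik3, Grin2b, Grid1 and Shank2 above it.

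Taking the mean of the 4 crushed groups against WT, which uses 12 crushed libraries, 4 members fell and 0 rose: Gria2, Grm6, Grin2d and Shank3. Over all tested genes 7.58% were called, 3.43% higher and 4.15% lower. Unadjusted p was under 0.05 for 11 members. The members that fell belong to different parts of the synapse, an AMPA subunit, a metabotropic receptor, an NMDA subunit and a scaffold.

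Gria2 (ENSMUSG00000033981, chr3:80681450-80802835, minus strand, mm10 coordinates from GENCODE M21) was at 331, 399 and 342 CPM in WT, 315, 308 and 328 in ONC, 305, 283 and 333 in ONC-F, 311, 332 and 318 in ONC-J, and 232, 237 and 208 CPM in ONC-S. WT replicate 2 was the highest library and the 3 ONC-S libraries were the lowest, and ONC-F replicate 3 and ONC-J replicate 2 just reached the WT range. The crushed groups together fell by 19.0% (log2 fold change -0.30 ± 0.05 (SE), edgeR adjusted p = 0.00129). In ONC alone the value was -0.17 ± 0.07, edgeR adjusted p = 0.322, which did not pass, and without the ONC-S group the mean of the crushed groups was -0.18, edgeR adjusted p = 0.0913, so the call was lost without those libraries.

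Grm6 (ENSMUSG00000000617, chr11:50850685-50866208, plus strand) was at 228, 262 and 198 CPM in WT, 209, 199 and 214 in ONC, 188, 207 and 188 in ONC-F, 192, 154 and 196 in ONC-J, and 161, 148 and 131 CPM in ONC-S. The WT libraries were spread widely: all ONC-J and ONC-S libraries lay under the lowest of them, while ONC and ONC-F overlapped WT. The crushed groups together fell by 21.2% (log2 fold change -0.34 ± 0.07 (SE), edgeR adjusted p = 0.00602). Without WT replicate 2 the log2 value was -0.24, edgeR adjusted p = 0.120, and without the ONC-S group -0.24, edgeR adjusted p = 0.0917. ON bipolar cells are the site of Grm6, and the sum of 9 bipolar cell markers was 927 to 957 CPM in WT, 871 to 954 in ONC, 905 to 966 in ONC-F, 903 to 983 in ONC-J, while ONC-S had 857 to 989, and no marker was at 0. In the crushed groups against WT 1 of these 9 markers was lower and 0 higher. There 3 of 8 cone markers were lower and 0 higher, and 1 of 8 rod markers was higher and 0 lower. Over all tested genes 3.43% were called higher and 4.15% lower. The part of these cell types in the fall of Grm6 was not tested. An antisense gene, Gm12660, covers 11.05% of the exon length of Grm6 on the opposite strand, and the strand setting of the counting is not given in the sources used here.

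Grin2d (ENSMUSG00000002771, chr7:45831883-45878378, minus strand), an NMDA receptor subunit with slow channel closure, was at 27.4, 30.7 and 28.5 CPM in WT, 21.7, 20.5 and 26.1 in ONC, 18.5, 22.2 and 25.8 in ONC-F, 23.9, 18.1 and 26.1 in ONC-J, and 21.3, 19.5 and 18.2 CPM in ONC-S. All 12 crushed libraries lay below all 3 WT libraries, which held for 2.52% of all tested genes. The crushed groups together fell by 24.5% (log2 fold change -0.41 ± 0.10 (SE), edgeR adjusted p = 0.0126), and all 4 single groups had negative fitted changes: -0.34 in ONC, -0.37 in ONC-F and -0.35 in ONC-J, which did not pass, while ONC-S had -0.55, which did. The call of the crushed groups was lost without WT replicate 2 (-0.36, edgeR adjusted p = 0.108), without WT replicate 3 (-0.41, edgeR adjusted p = 0.0504) and without the ONC-S group (-0.35, edgeR adjusted p = 0.0683). Gm45441, on the opposite strand, covers 9.66% of the exon length.

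Shank3 (ENSMUSG00000022623, chr15:89499623-89560261, plus strand), a scaffold that ties receptor complexes to actin, was at 38.4, 40.6 and 35.0 CPM in WT, 33.6, 30.3 and 32.3 in ONC, 29.3, 31.1 and 30.99 in ONC-F, 34.2, 29.7 and 30.4 in ONC-J, and 35.1, 30.8 and 34.3 CPM in ONC-S. The libraries of ONC-F, ONC-J and ONC lay below all WT libraries, and ONC-S overlapped WT through replicate 1. The crushed groups together fell by 16.3% (log2 fold change -0.26 ± 0.06 (SE), edgeR adjusted p = 0.00885). This was the member whose call remained without the ONC-S group, at an edgeR adjusted p of 0.0111, but it was lost without WT replicate 1 (-0.25, edgeR adjusted p = 0.0517), the library with lens RNA, and without WT replicate 2 (-0.20, edgeR adjusted p = 0.118).

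Grm8, a metabotropic receptor of axon terminals, missed the threshold in the crushed groups together (log2 fold change -0.22 ± 0.07 (SE), edgeR adjusted p = 0.0504). It was at 33.5, 31.4 and 31.6 CPM in WT, 26.2, 26.5 and 26.8 in ONC, 25.3, 30.7 and 33.3 in ONC-F, 28.0, 26.7 and 31.6 in ONC-J, and 26.6, 24.4 and 25.8 CPM in ONC-S. The 3 ONC libraries were close to each other and below WT, and replicate 3 of ONC-F and of ONC-J reached the WT range.

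Grin2a and Grin3a, a glutamate-binding and a glycine-binding NMDA subunit, were described after their values were seen, because leaving out 1 library changed their call. Without the low-count filter Grin2a was also called with all libraries kept, in ONC, ONC-F, ONC-J and the crushed groups together against WT. Grin2a was at 12.9, 16.3 and 13.1 CPM in WT, 10.8, 9.96 and 10.6 in ONC, 10.9, 6.84 and 12.1 in ONC-F, 11.8, 10.3 and 8.72 in ONC-J, and 14.5, 11.7 and 13.0 CPM in ONC-S. Grin3a was at 12.1, 13.3 and 12.2 CPM in WT, 9.76, 8.83 and 10.03 in ONC, 9.62, 8.05 and 13.9 in ONC-F, 10, 10.2 and 10.9 in ONC-J, and 13.2, 13.2 and 11.4 CPM in ONC-S. All ONC libraries lay below WT in both genes, the ONC-S libraries overlapped WT, and ONC-F replicate 3 was the highest of its group. That library also had the highest sum of RGC markers among the crushed libraries (992 CPM). There the mean difference of these markers from WT in log2(CPM + 1) was -0.386. The ONC-S libraries, which lay within or near the WT range in Grin2a and Grin3a, had RGC markers at -0.798 to -0.677 on that scale, beside -0.777 to -0.704 in ONC. Without ONC-F replicate 3, 7 members were called in the crushed groups against WT, the 4 named and Grin2a, Grin3a and Grm8, while calls over all genes went from 1459 to 1535. In ONC-F against WT 3 were then called (Grin2a, Grin3a and Homer2) and Shank3 was not, while calls over all genes went from 387 to 459. The part of RGC content in these values was not tested.

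**Figure D3:**
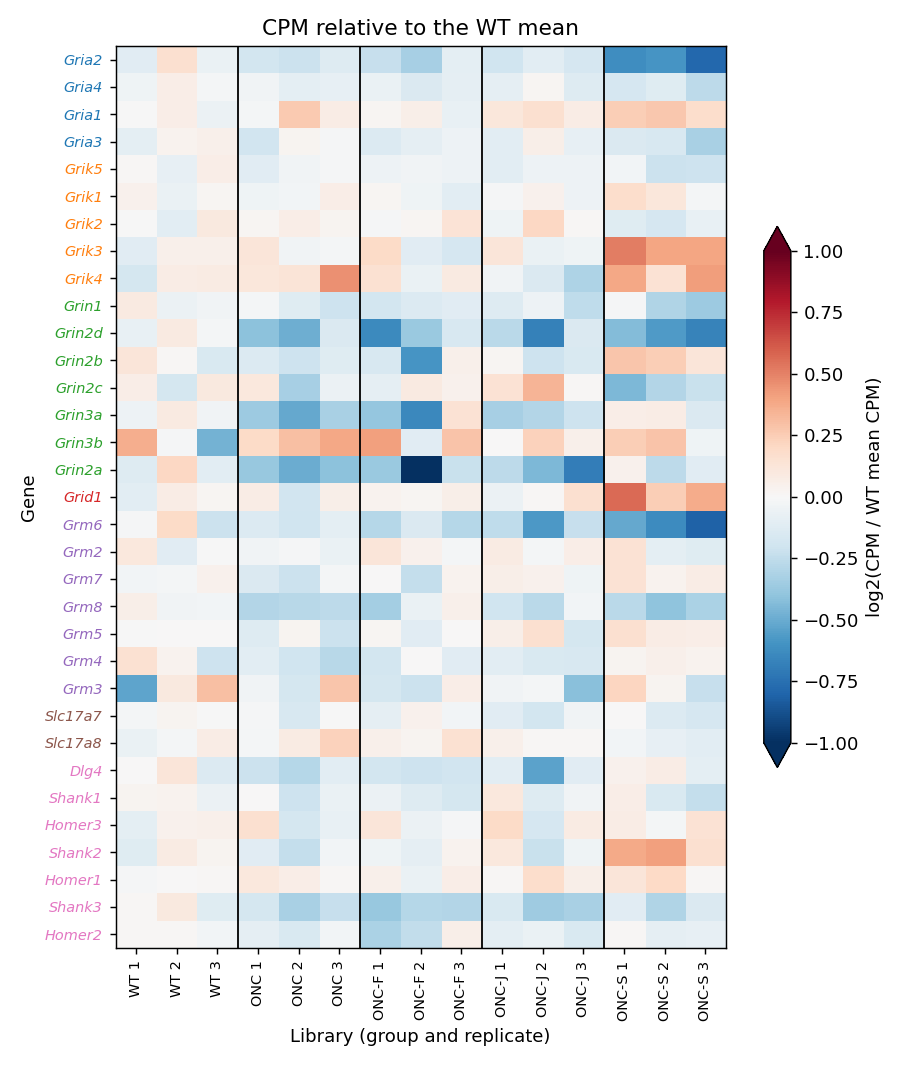
CPM of each gene (rows, by role) in each library (columns, by group) as log2 of the ratio to the WT mean, from blue (lower) to red (higher). The 3 ONC-S columns stand apart in Gria2 (blue) and in Grik3, Grid1 and Shank2 (red), and Grin2d is blue in all 12 crushed columns. Grm6 is also blue in ONC-S, but ONC-J replicate 2 (153.9 CPM) lies below ONC-S replicate 1 (160.9 CPM).

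Against WT, the groups needled at GB20 or BL1 differed in few of these genes. In ONC-F 1 member fell and 0 rose, and 2.01% of all tested genes were called (1.03% higher, 0.981% lower). That member was Shank3, which fell by 19.8% (log2 fold change -0.32 ± 0.07 (SE), edgeR adjusted p = 0.0274), a call lost in 5 of the 6 fits that leave out 1 library, where the edgeR adjusted p reached 0.156 without WT replicate 2 and stayed under 0.05 only without WT replicate 3. In ONC-J 2 members fell and 0 rose, and 3.61% of all tested genes were called (1.86% higher, 1.76% lower). They were Shank3 (log2 fold change -0.28 ± 0.07 (SE), edgeR adjusted p = 0.0440) and Grm6 (log2 fold change -0.35 ± 0.10 (SE), edgeR adjusted p = 0.0499). Shank3 was lost without WT replicate 1, WT replicate 2, ONC-J replicate 2 or ONC-J replicate 3, and Grm6 without WT replicate 1, WT replicate 2, ONC-J replicate 1 or ONC-J replicate 2. Without ONC-J replicate 2, the lowest ONC-J library in both genes, Shank3 gave -0.24, edgeR adjusted p = 0.206 and Grm6 -0.24, edgeR adjusted p = 0.270.

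The comparisons of needled with untreated crushed retina ask whether needling, together with its anaesthesia, moved these genes after crush. In ONC-F against ONC 0 of 33 members were called by edgeR and 0 by DESeq2, 0 had an unadjusted p under 0.05, and 0.00519% of all tested genes were called. The 95% intervals of the log2 fold changes were within -0.65 and 0.45 for every member, and for Gria2 the interval was -0.19 to 0.10 and for Grm6 -0.29 to 0.11. In ONC-J against ONC 0 members were called by edgeR and 0 by DESeq2, 2 had an unadjusted p under 0.05, and 0.125% of all tested genes were called (0.104% higher, 0.0208% lower). Those 2 were Grik4, a high-affinity kainate subunit (log2 fold change -0.40 ± 0.16 (SE), edgeR adjusted p = 0.489), and Grm6 (log2 fold change -0.20 ± 0.10 (SE), edgeR adjusted p = 0.597). Grik4 was at 3.49, 4.13 and 4.17 CPM in WT, 4.25, 4.30 and 5.39 in ONC, 4.36, 3.75 and 4.18 in ONC-F, 3.84, 3.55 and 3.18 in ONC-J, and 5.15, 4.35 and 5.25 CPM in ONC-S. The 3 ONC-J libraries lay below the 3 ONC libraries in both genes, and 6.77% of all tested genes showed this. The interval of Gria2 was -0.13 to 0.16.

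GV16 needling is the sham point, and the ONC-S group differed most. Against WT 4 members rose (Gria1, Grik3, Grid1 and Shank2) and 6 fell (Gria2, Gria3, Gria4, Grin2d, Grm6 and Grm8), 10 of 33, while 23.3% of all tested genes were called (11.6% higher, 11.7% lower). Against ONC 4 members rose (Grik3, Grin2b, Grid1 and Shank2) and 2 fell (Gria2 and Grm6), 6 of 33, while 14.5% of all tested genes were called (7.60% higher, 6.89% lower). The share of members called was near that of all genes in both. The 3 ONC-S libraries lay above all 12 other libraries for 3 members (Grik3, Grid1 and Shank2) and below them for 1 (Gria2), 9.09% and 3.03% of the 33, beside 7.30% and 6.05% of all tested genes. The comparisons of ONC-S with WT, ONC, ONC-F and ONC-J share the ONC-S libraries and are not independent of each other.

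The AMPA receptor subunits did not move as one in ONC-S. Gria2 was 317 ± 10.03 CPM in ONC and 226 ± 15.6 in ONC-S (SD, n = 3), and it fell by 28.8% (log2 fold change -0.49 ± 0.07 (SE), edgeR adjusted p = 0.000176), and against WT it fell by 36.9% (log2 fold change -0.66 ± 0.07 (SE), edgeR adjusted p = 2.58e-06). Both calls held in every fit that leaves out 1 library of the compared groups, with an edgeR adjusted p of at most 0.00168 against ONC. Gria1, which forms calcium-permeable channels where Gria2 is absent, was at 52.8, 55.5 and 50.8 CPM in WT, 52.2, 63.7 and 55.8 in ONC, 53.6, 55.1 and 50.3 in ONC-F, 57.2, 59.2 and 55.9 in ONC-J, and 63.0, 64.0 and 59.9 CPM in ONC-S. Its ONC-S libraries lay above WT, and ONC replicate 2 lay among them. Gria1 rose against WT by 17.3% (log2 fold change 0.23 ± 0.07 (SE), edgeR adjusted p = 0.0163), and against ONC it was not called (log2 fold change 0.12 ± 0.07 (SE), edgeR adjusted p = 0.242). The call against WT was lost without WT replicate 1 (0.22, edgeR adjusted p = 0.0510), WT replicate 3 (0.20, edgeR adjusted p = 0.0753) or ONC-S replicate 2 (0.21, edgeR adjusted p = 0.0632).

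Gria3 was at 47.0, 51.5 and 52.2 CPM in WT, 44.0, 51.2 and 49.8 in ONC, 45.6, 47.1 and 48.5 in ONC-F, 46.8, 52.3 and 47.5 in ONC-J, and 45.4, 44.8 and 40.1 CPM in ONC-S. Gria4, the most abundant AMPA subunit per length after Gria2 by the mean over 15 libraries, was at 104, 112 and 105 CPM in WT, 104, 99.7 and 101 in ONC, 102, 96.6 and 100.3 in ONC-F, 100.2, 109 and 97.7 in ONC-J, and 95.0, 98.1 and 89.1 CPM in ONC-S. The ONC-S libraries lay below WT in both and overlapped some of the other crushed groups. Per length, Gria4 in ONC-S was at 14.9 ± 0.742 FPKM and Gria2 at 14.5 ± 1.02 FPKM (SD, n = 3). That is the reverse of their order over all libraries, by less than the SD. Against WT, Gria4 fell by 12.1% (log2 fold change -0.19 ± 0.05 (SE), edgeR adjusted p = 0.0161) and Gria3 by 13.6% (log2 fold change -0.21 ± 0.07 (SE), edgeR adjusted p = 0.0348). Without ONC-S replicate 3, the lowest library in both, neither was called: Gria4 gave -0.15, edgeR adjusted p = 0.0917 and Gria3 -0.15, edgeR adjusted p = 0.174. Without WT replicate 2 they were also not called, Gria4 at -0.15, edgeR adjusted p = 0.0831 and Gria3 at -0.19, edgeR adjusted p = 0.112, and without WT replicate 3 Gria3 gave -0.18, edgeR adjusted p = 0.126.

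As a share of the summed FPKM of the 4 AMPA subunits, a measure chosen after the values were seen, Gria2 was 42.7% ± 1.54 in WT, 40.1% ± 1.33 in ONC, 40.2% ± 2.02 in ONC-F, 40.2% ± 0.611 in ONC-J, but 32.9% ± 0.539 in ONC-S (SD, n = 3 libraries). Gria1 was 16.3% ± 0.639 in WT, 18.6% ± 1.70 in ONC, 17.9% ± 1.40 in ONC-F, 18.6% ± 0.325 in ONC-J, but 23.4% ± 0.461 in ONC-S. All 3 ONC-S libraries had a lower Gria2 share and a higher Gria1 share than all 12 others. A share moves with the other subunits of its sum, and Gria1 itself was not called in ONC-S against ONC. The exact two-sided permutation test of 3 against 3 libraries gave p = 0.1 for both in ONC-S against ONC, the smallest p this design allows, and 0.133 after Benjamini-Hochberg adjustment over the 8 subunit shares compared. For the 12 crushed libraries against WT, the Gria1 share was 3.27 percentage points higher (exact permutation p = 0.044, adjusted 0.164) and the Gria2 share differed by -4.32 points (exact permutation p = 0.0615, adjusted 0.164). The ONC-S group carried the most of both: its Gria1 share was 7.03 points above WT, beside 2.28, 1.56 and 2.21 for the other crushed groups, and its Gria2 share differed by -9.79 points, beside -2.58, -2.45 and -2.44. Without ONC-S, a setting added after the data were seen, the differences were 2.02 points for Gria1 and -2.49 points for Gria2 (exact permutation p = 0.0182 for each, not adjusted). Without WT replicate 1 they were 3.64 and -4.86 points (exact permutation p = 0.0549 for each), and without ONC replicate 2 they were 3.19 and -4.34 points (exact permutation p = 0.0659 and 0.0797).

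**Figure D4:**
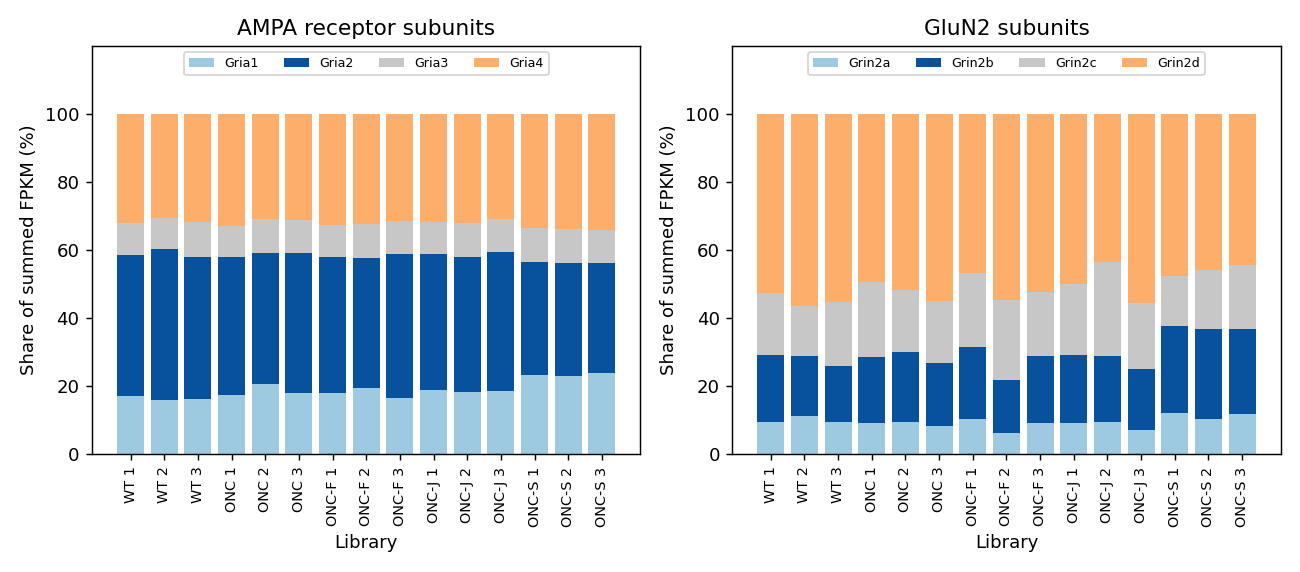
Share of each subunit in the summed FPKM of the 4 AMPA receptor subunits (left) and of the 4 GluN2 subunits (right), as stacked bars adding to 100% in each of the 15 libraries. In the 3 ONC-S libraries the dark blue Gria2 part is the smallest (32.9% on average, 42.7% in WT), and the dark blue Grin2b part is the largest (25.6% on average, 17.9% in WT).

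Among the NMDA subunits, Grin2b, which favours slow currents and carries docking sites for scaffolds, was at 38.3, 35.4 and 31.7 CPM in WT, 31.9, 30.5 and 32.4 in ONC, 31.5, 23.3 and 36.4 in ONC-F, 35.7, 30.4 and 31.6 in ONC-J, and 42.5, 41.7 and 38.1 CPM in ONC-S. ONC-S was above all ONC libraries and overlapped WT in replicate 3. Grin2b rose by 29.0% against ONC (log2 fold change 0.37 ± 0.11 (SE), edgeR adjusted p = 0.0339), a call lost in 5 of 6 fits that leave out 1 library, up to 0.34, edgeR adjusted p = 0.103 without ONC replicate 2, and kept only without ONC-S replicate 3. Grin2d fell against WT by 31.9% (log2 fold change -0.55 ± 0.13 (SE), edgeR adjusted p = 0.00332), and against ONC it was -0.21 ± 0.13, edgeR adjusted p = 0.299, not called. Grin2c was at 7.17, 6.06 and 7.33 CPM in WT, 7.36, 5.43 and 6.59 in ONC, 6.44, 7.30 and 7.06 in ONC-F, 7.57, 8.69 and 6.89 in ONC-J, and 5.02, 5.59 and 5.86 CPM in ONC-S. Its mean was lowest in ONC-S, where the libraries overlapped ONC, and it passed only against ONC-J (log2 fold change 0.49 ± 0.14 (SE), edgeR adjusted p = 0.0234), where ONC-J was higher, and that call was lost without ONC-S replicate 1 (0.44, edgeR adjusted p = 0.0811), ONC-S replicate 2 (0.51, edgeR adjusted p = 0.0570) or ONC-J replicate 2 (0.40, edgeR adjusted p = 0.107). Grin1, the subunit every NMDA receptor needs, was 81.4 ± 4.49 CPM in WT and 70.0 ± 9.37 in ONC-S (log2 fold change -0.22 ± 0.08 (SE), edgeR adjusted p = 0.0529), and the antisense gene Grin1os covers 13.47% of its exon length.

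In the kainate and delta families, single members stood out. Grik3 (ENSMUSG00000001985, chr4:125490700-125714173, plus strand), a low-affinity kainate subunit, was at 12.5, 14.0 and 14.0 CPM in WT, 14.7, 13.1 and 13.3 in ONC, 15.4, 12.5 and 12.02 in ONC-F, 14.7, 12.9 and 13.1 in ONC-J, and 19.3, 17.7 and 17.7 CPM in ONC-S. The ONC-S libraries were the 3 highest of all 15. Grik3 rose by 32.9% against ONC (log2 fold change 0.41 ± 0.10 (SE), edgeR adjusted p = 0.00923). The other kainate subunits Grik1, Grik2 and Grik5 did not pass in any of the 10 comparisons, with log2 fold changes between -0.15 and 0.18. Grik5, a high-affinity subunit and the most abundant of the family, was at 121, 114 and 126 CPM in WT, 111, 117 and 119 in ONC, 117, 118 and 117 in ONC-F, 112, 116 and 116 in ONC-J, and 118, 104 and 104 CPM in ONC-S. Every crushed group overlapped WT.

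Grid1 (ENSMUSG00000041078, chr14:34820108-35583379, plus strand), a delta receptor subunit that binds presynaptic partners through cerebellins, was at 16.7, 18.9 and 18.2 CPM in WT, 18.9, 15.7 and 18.7 in ONC, 18.4, 18.2 and 18.7 in ONC-F, 17.2, 18.1 and 20.1 in ONC-J, and 26.5, 21.3 and 23.2 CPM in ONC-S. The ONC-S libraries were again the 3 highest of all 15. It rose by 33.6% against ONC (log2 fold change 0.42 ± 0.09 (SE), edgeR adjusted p = 0.00537). Grik3 and Grid1 kept their calls against ONC and WT in every fit that leaves out 1 library, with edgeR adjusted p up to 0.0438 and 0.0382 against ONC.

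Grm6 was 207 ± 7.42 CPM in ONC and 147 ± 15.2 in ONC-S (SD, n = 3), without overlap. It fell by 29.4% against ONC (log2 fold change -0.50 ± 0.10 (SE), edgeR adjusted p = 0.00169) and by 36.1% against WT (log2 fold change -0.65 ± 0.10 (SE), edgeR adjusted p = 8.84e-05), and both calls held in every fit that leaves out 1 library. Grm8 fell against WT by 20.3% (log2 fold change -0.33 ± 0.08 (SE), edgeR adjusted p = 0.00870). The receptors Grm2, Grm3, Grm4, Grm5 and Grm7 did not pass in any of the 10 comparisons, and the lowest edgeR adjusted p among them was 0.086 for Grm7, a presynaptic receptor, in ONC-S against ONC. Beside the fall of Grm6, 2 of 9 bipolar cell markers were lower in ONC-S than in ONC (Pcp2 and Fezf2) and 0 higher, 3 of 8 cone markers were lower and 0 higher, and 3 of 8 rod markers were higher and 0 lower. Of 5 vascular markers 2 were lower and 0 higher, and of 18 RGC markers 2 were higher and 0 lower. Over all tested genes 7.60% were called higher and 6.89% lower in ONC-S than in ONC. Summed cone markers were 1090 to 1167 CPM in ONC-S and 1268 to 1408 in ONC, and summed rod markers 24190 to 26190 and 20960 to 24170. The part of these cell types in the changes of the members was not tested.

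Of the scaffolds, Shank2 (ENSMUSG00000037541, chr7:144001928-144424494, plus strand), which links the postsynaptic density to Homer proteins, was at 83.4, 95.8 and 92.4 CPM in WT, 83.7, 76.8 and 88.9 in ONC, 88.0, 85.3 and 92.9 in ONC-F, 97.2, 77.6 and 88.1 in ONC-J, and 118, 120.2 and 101 CPM in ONC-S. The ONC-S libraries were the 3 highest of all 15. It rose by 36.0% against ONC (log2 fold change 0.44 ± 0.08 (SE), edgeR adjusted p = 0.00117) and by 24.8% against WT (log2 fold change 0.32 ± 0.08 (SE), edgeR adjusted p = 0.00715), in every fit that leaves out 1 library. Shank3 was not called in ONC-S against ONC (log2 fold change 0.06 ± 0.07 (SE), edgeR adjusted p = 0.655). Dlg4, Shank1, Homer1, Homer2 and Homer3 did not pass in any of the 10 comparisons. Dlg4 had the lowest edgeR adjusted p among them, 0.0794 in ONC-J against ONC-S. Ddx49 covers 25.41% of the exon length of Homer3 on the opposite strand, so counts of Homer3 may hold reads of that gene.

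**Figure D5:**
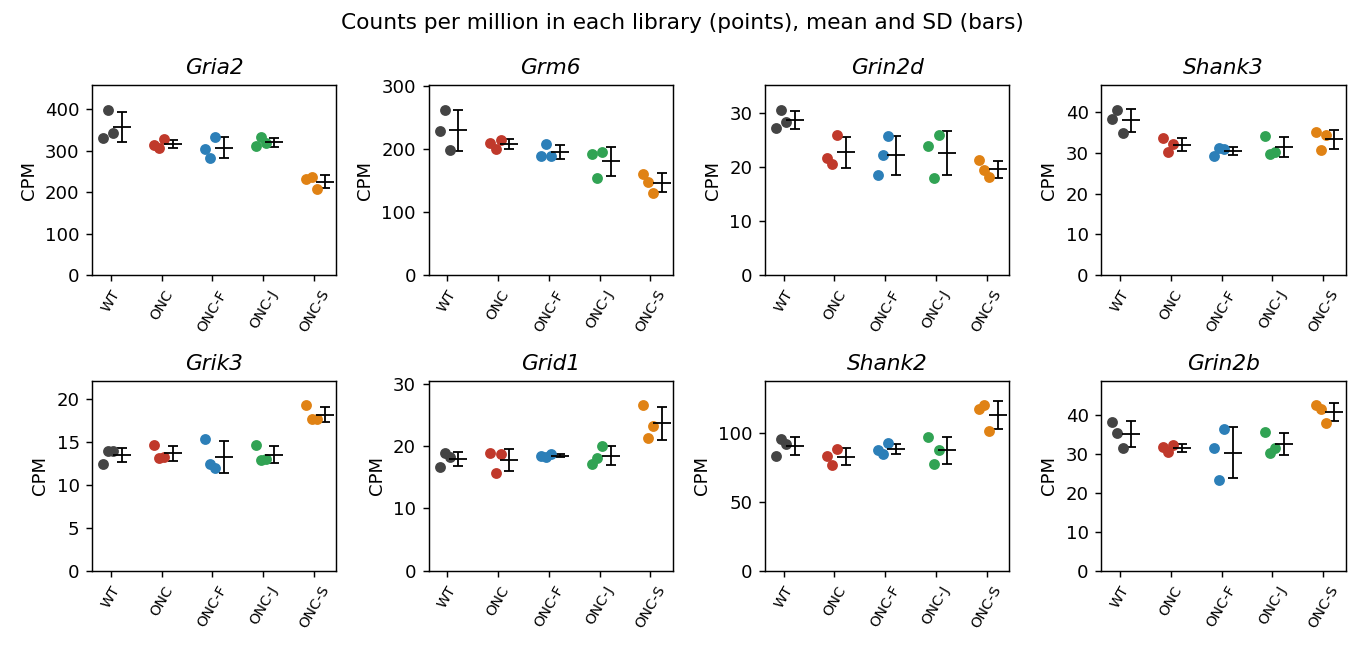
CPM of 8 members in each of the 15 libraries (points, coloured by group, vertical axes from 0), with the mean and SD of each group beside them. By group mean, Gria2 and Grm6 are lowest in ONC-S, Grik3, Grid1 and Shank2 are highest there, and Grin2d and Shank3 are highest in WT.

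The vesicular transporters did not pass in any comparison. Slc17a7 was at 1551, 1609 and 1568 CPM in WT, 1561, 1408 and 1570 in ONC, 1480, 1622 and 1549 in ONC-F, 1460, 1387 and 1534 in ONC-J, and 1583, 1433 and 1404 CPM in ONC-S. The ONC-J libraries lay under WT and the other crushed groups overlapped it. The 10 comparisons gave log2 fold changes from -0.11 to 0.07. Slc17a8, the transporter of a class of amacrine cells, gave log2 fold changes from -0.17 to 0.15.

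The needled groups were also set against the sham point. In ONC-F against ONC-S 2 members were higher in ONC-F (Gria2 and Grm6) and 5 lower (Gria1, Grik3, Grin2b, Grid1 and Shank2), and 14.6% of all tested genes were called (7.03% higher, 7.60% lower). Gria2 differed by 0.45 ± 0.07, edgeR adjusted p = 0.000386, and Shank2 by -0.35 ± 0.08, edgeR adjusted p = 0.00690. In ONC-J against ONC-S 3 were higher in ONC-J (Gria2, Grin2c and Grm6) and 4 lower (Grik3, Grik4, Grid1 and Shank2), and 12.9% of all tested genes were called (6.28% higher, 6.62% lower). Gria2 differed by 0.51 ± 0.07, edgeR adjusted p = 0.000145, and Shank2 by -0.37 ± 0.08, edgeR adjusted p = 0.00558. Gria2, Grik3 and Shank2 kept their calls in both comparisons without any 1 library. Grm6 did so only against ONC-F: against ONC-J it was not called without ONC-J replicate 1, ONC-J replicate 3, ONC-S replicate 2 or ONC-S replicate 3, with an edgeR adjusted p up to 0.187, and it was also not called with RLE size factors, with limma on FPKM at either pseudocount or in the fit on the compared groups only. Without ONC-S replicate 1, Grid1 was not called against ONC-F (-0.27, edgeR adjusted p = 0.0830) or ONC-J (-0.27, edgeR adjusted p = 0.0895), and 4 members remained in ONC-J against ONC-S (Gria2, Grik3, Grm6 and Shank2). Against ONC-J, Grid1 was also lost without ONC-J replicate 1 (-0.32, edgeR adjusted p = 0.0587), and Grik4 without ONC-J replicate 2, ONC-J replicate 3, ONC-S replicate 1 or ONC-S replicate 3, with an edgeR adjusted p up to 0.153. Grik4 was not called in 6 of 8 other settings either, among them DESeq2 and both limma fits. Against ONC-F, Gria1 was lost without ONC-F replicate 3, ONC-S replicate 1 or ONC-S replicate 2, up to an edgeR adjusted p of 0.108, and Grin2b without ONC-F replicate 2, ONC-S replicate 1 or ONC-S replicate 2, up to 0.0849. Grin2b was also not called there by limma at either pseudocount.

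Markers of other cells moved in the same comparisons. Of 5 pigment epithelium markers 4 were higher in ONC-F than in ONC-S and 4 in ONC-J than in ONC-S, with 0 lower in either, and their sum was 113 to 188 CPM in ONC-F, 127 to 170 in ONC-J and 59.9 to 97.1 in ONC-S, beside 60.9 to 145 in WT and 77.8 to 138 in untreated crush. Of 8 cone markers 3 were higher in each comparison, and of 9 bipolar cell markers 2 were, with 0 lower. Of 8 rod markers 2 were lower and 1 higher in ONC-F, and 3 lower and 0 higher in ONC-J. Their part in the differences of the members was not tested.

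Transcript length and base composition were checked because ONC-S differed in many genes. Over 5 equal bins of all tested genes by exon length, the median log2 fold change of ONC-S against ONC ran from -0.06 in the shortest to 0.04 in the longest, and over 5 bins by GC content it lay between -0.04 and 0.01. The lowest bin by GC had a median of -0.03. Gria2 was at the 98.1 percentile of exon length and at the 8.90 percentile of GC content. With offsets for GC content and length, an alternative chosen after the data were seen, 5 of the 6 members called in ONC-S against ONC remained, and Grin2b did not (0.25, edgeR adjusted p = 0.0701). In ONC-F against ONC-S 5 of the 7 remained and in ONC-J against ONC-S 6 of the 7.

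Partners of these proteins were counted from lists of other genes. Over all tested genes, 2.11% were called in ONC against WT, 7.58% in the crushed groups against WT and 14.5% in ONC-S against ONC. In ONC-F against WT 2.01% were called, in ONC-J against WT 3.61% and in ONC-J against ONC 0.125%. The counts in these short lists were not tested against those shares. Of 14 auxiliary subunits of AMPA and kainate receptors, 1 fell in ONC against WT and 0 rose: Cacng5, which was at 34.6, 39.1 and 33.9 CPM in WT, 27.2, 26.9 and 27.4 in ONC, 27.1, 28.8 and 30.0 in ONC-F, 24.4, 24.6 and 26.0 in ONC-J, and 29.6, 28.4 and 24.4 CPM in ONC-S. All 12 crushed libraries lay below WT. Cacng5 gave -0.40 ± 0.08, edgeR adjusted p = 0.00446 in ONC, -0.32 ± 0.08, edgeR adjusted p = 0.0273 in ONC-F and -0.52 ± 0.08, edgeR adjusted p = 0.00027 in ONC-J, and it fell by 24.8% in the crushed groups together (log2 fold change -0.41 ± 0.06 (SE), edgeR adjusted p = 0.000118). In ONC-S against ONC 2 of the 14 rose, Cacng3 (log2 fold change 0.31 ± 0.07 (SE), edgeR adjusted p = 0.00330) and Cacng2 (log2 fold change 0.21 ± 0.07 (SE), edgeR adjusted p = 0.0374), which carry AMPA receptors to the synapse. Cacng5 kept its call in ONC, in ONC-J and in the crushed groups together in every fit that leaves out 1 library, and in ONC-F lost it in 4 of 6, up to -0.26, edgeR adjusted p = 0.170 without WT replicate 2. Cacng3 kept its call in all 6, and Cacng2 lost it in all 6, up to 0.20, edgeR adjusted p = 0.115 without ONC replicate 3.

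Of 22 other postsynaptic density proteins none passed in ONC against WT, where 5 had an unadjusted edgeR p under 0.05, and 3 fell and 0 rose in the crushed groups against WT: Dlgap3 (log2 fold change -0.27 ± 0.06 (SE), edgeR adjusted p = 0.00671), Camk2b, a subunit of the calcium-dependent kinase of the synapse (log2 fold change -0.15 ± 0.04 (SE), edgeR adjusted p = 0.0145), and Lrrc4b (log2 fold change -0.18 ± 0.05 (SE), edgeR adjusted p = 0.0258), chosen after its value was seen. In ONC-S against ONC 2 rose, Dlgap2 (log2 fold change 0.64 ± 0.16 (SE), edgeR adjusted p = 0.0115) and Dlgap4 (log2 fold change 0.23 ± 0.07 (SE), edgeR adjusted p = 0.0234), and 1 fell, Camk2b (log2 fold change -0.20 ± 0.05 (SE), edgeR adjusted p = 0.00877). Dlgap2 binds the scaffold that Dlg4 encodes. In the crushed groups together, Dlgap3 kept its call in all 15 fits that leave out 1 library and without the ONC-S group. Camk2b lost it without WT replicate 2 (-0.15, edgeR adjusted p = 0.0910), without WT replicate 3 (-0.14, edgeR adjusted p = 0.0882) and without the ONC-S group (-0.10, edgeR adjusted p = 0.160), and Lrrc4b lost it without any 1 of the 3 WT libraries, up to -0.16, edgeR adjusted p = 0.133. In ONC-S against ONC, Dlgap2 lost its call without ONC replicate 2 (0.50, edgeR adjusted p = 0.0681), Camk2b without ONC-S replicate 2 (-0.17, edgeR adjusted p = 0.0518) and Dlgap4 in 4 of 6 fits, up to 0.17, edgeR adjusted p = 0.128 without ONC replicate 2.

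Of 12 genes of the mGluR6 cascade of ON bipolar cells none passed in ONC against WT, where 2 had an unadjusted edgeR p under 0.05. In the crushed groups against WT 1 fell (Rgs11) and 1 rose (Gnb5). Rgs11 kept that call in all 15 fits that leave out 1 library, and Gnb5 in 14, losing it without WT replicate 3 (edgeR adjusted p = 0.0622). The same 2 genes were called in ONC-J against WT, Rgs11 in 6 of 6 such fits and Gnb5 in 5. In ONC-F against WT only Gnb5 was called, and in 1 of 6 such fits. Rgs11, which with Gnb5 switches the cascade off, was at 139, 132 and 126 CPM in WT, 123, 131 and 116 in ONC, 119.8, 129 and 119.8 in ONC-F, 109.7, 103 and 111 in ONC-J, and 74.1, 70.8 and 71.8 CPM in ONC-S. The ONC-S libraries were the lowest of all and did not overlap any other, while ONC and ONC-F overlapped WT. Gnb5 was at 689.6, 683.7 and 663.6 CPM in WT, 710.8, 619 and 642 in ONC, and 922, 765.3 and 819.2 in ONC-F. It was at 872.7, 906.3 and 821.6 CPM in ONC-J, and 1050, 900.6 and 864.5 in ONC-S. In Gnb5 the untreated crushed libraries overlapped WT, and every ONC-F, ONC-J and ONC-S library lay above WT. Rgs11 fell by 41.5% against ONC (log2 fold change -0.77 ± 0.06 (SE), edgeR adjusted p = 3.44e-07), and Gnb5, also used by photoreceptors, rose by 42.8% (log2 fold change 0.51 ± 0.08 (SE), edgeR adjusted p = 0.000199). Lrit3 and Rgs9bp also rose and Gnb3 also fell in that comparison, so 3 of 12 rose and 2 fell. Rgs11 and Gnb5 kept these calls in all 6 fits that leave out 1 library, while Rgs9bp lost its call without ONC replicate 2 or ONC-S replicate 2, and Lrit3 and Gnb3 without either of these or ONC-S replicate 1. Gnb5 was also higher in ONC-J than in ONC (log2 fold change 0.40 ± 0.08 (SE), edgeR adjusted p = 0.0403), a call lost in 4 of 6 such fits, up to 0.37, edgeR adjusted p = 0.205 without ONC-J replicate 2. Trpm1, the channel that mGluR6 closes, was at 346 to 447 CPM in all 15 libraries and did not pass in any comparison. Gnb3 and Trpm1 were chosen after their values were seen.

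Of 10 genes of glutamate uptake and recycling none passed in ONC against WT, where 1 had an unadjusted edgeR p under 0.05, and 2 rose and 0 fell both in the crushed groups against WT and in ONC-S against ONC. Both are glutamine transporters. Slc38a2 was at 118, 124 and 118 CPM in WT, 135, 139.8 and 134 in ONC, 205, 172 and 121 in ONC-F, 171, 178 and 127 in ONC-J, and 196, 235 and 206 CPM in ONC-S. All crushed libraries but ONC-F replicate 3 lay above WT, and replicate 3 of ONC-F and of ONC-J was the lowest of its group. Slc38a2 rose by 38.4% in the crushed groups against WT (log2 fold change 0.47 ± 0.11 (SE), edgeR adjusted p = 0.0114) and Slc38a1 by 15.5% (log2 fold change 0.21 ± 0.05 (SE), edgeR adjusted p = 0.0222). Slc38a1 was at 255, 259 and 226 CPM in WT, 284, 249 and 268 in ONC, 279.8, 258 and 261 in ONC-F, 292, 280.3 and 259 in ONC-J, and 362, 324 and 316 CPM in ONC-S. The ONC-S libraries lay above all 12 others, ONC and ONC-F overlapped WT, and the lowest ONC-J library was level with the highest of WT. Both calls in the crushed groups were lost without the ONC-S group, Slc38a2 at 0.35, edgeR adjusted p = 0.108 and Slc38a1 at 0.13, edgeR adjusted p = 0.217. They were also lost without WT replicate 1, at 0.46, edgeR adjusted p = 0.0599 and 0.23, edgeR adjusted p = 0.0537, and without WT replicate 3, at 0.45, edgeR adjusted p = 0.0641 and 0.15, edgeR adjusted p = 0.195, in the same order. In ONC-S against ONC both kept their calls in all 6 fits that leave out 1 library.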

How the data were processed

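Retinal poly(A) RNA of 15 libraries was sequenced as paired ends. The authors aligned reads with HISAT2 2.0.5 to mm10 and counted them per gene with featureCounts. They deposited whole-number counts, not normalized, and FPKM, which also divide by transcript length and depth. The strand setting is not given in the sources used here.

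Counts were tested with edgeR 4.0.16 in R 4.3.3: genes with low counts were removed (filterByExpr, minimum count 10, minimum total 15), libraries were scaled by TMM, and 1 quasi-likelihood fit over all 15 libraries (10 residual degrees of freedom) gave 10 comparisons, adjusted by the Benjamini-Hochberg method over 19259 genes. The same edgeR fit was also run on counts simulated from the means and spread of these data, so that run followed the fit to the data. Per-library values were named for members called in any comparison and for any other member with the smallest p of its role group in the crushed groups against WT. Up to 4 genes of each other list were named by smallest p. The members, gene lists and tests were chosen with earlier results of these data known. Alternatives were RLE size factors, no low-count filter, DESeq2 1.42.0, limma 3.58.1 on log2(FPKM + 0.1) and log2(FPKM + 1), a replicate block, the compared groups only and leaving out each library. Offsets for GC content and length, leaving out the ONC-S group, and the repeats for other genes and for subunit shares were added after the data were seen. No label names a batch. Some marker genes are not reported here and were left out of the marker counts and sums. Gene coordinates came from GENCODE M21.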

Additional observations from a re-analysis of the deposited data

How the results depend on the processing

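Without the low-count filter 4 members were called in ONC against WT (Grin2a, Grin2d, Grm8 and Dlg4, all lower), 6 in ONC-F against WT, 5 in ONC-J against WT and 7 in the crushed groups together, while calls over all genes rose too, from 407 to 881, 387 to 910, 696 to 1288 and 1459 to 2015. With only the compared groups in the fit, 1 was called in ONC against WT (Grm8) and 0 in ONC-J against WT, which also gave 0 with RLE size factors. Calls over all genes in these 3 fits were 415, 742 and 683. Limma on log2(FPKM + 0.1) and on log2(FPKM + 1) called 0 in ONC-F against WT, 0 in ONC-J against WT and 2 in the crushed groups together (Gria2 and Grm6). Over all genes the limma fits called 297 and 302, 522 and 528, and 1067 and 1064, in the same order. Without the ONC-S group, added after the data were seen, 1 member remained in the crushed groups by edgeR (Shank3), with 780 calls over all genes. The cause was not tested. Leaving out each library in turn gave 0 to 0 members in ONC against WT, 0 to 3 in ONC-F against WT, 0 to 2 in ONC-J against WT, 8 to 12 in ONC-S against WT, 0 to 0 in ONC-F against ONC and in ONC-J against ONC, 5 to 6 in ONC-S against ONC, 5 to 9 in ONC-F against ONC-S, 4 to 7 in ONC-J against ONC-S and 1 to 7 in the crushed groups against WT, where the 1 without WT replicate 2 was Gria2. Calls over all genes moved in these fits too. They were 459 where ONC-F against WT gave 3 members and 710 where the crushed groups gave 1. They were 1963 where ONC-F against ONC-S gave 9, beside 2816 with all libraries. They were 1965 where ONC-J against ONC-S gave 4, beside 2484 with all libraries. Over 140 single-gene values and 2086 alternatives, 1976 kept their side of the threshold, 87 lost a call, 23 gained one and 0 changed direction. These values covered 14 of the 33 members in each comparison, so gains by other members were not counted. In ONC against WT 3 gains were counted, while the fit without the low-count filter alone called 4 members. Most of the values were not called in the reported fit, so the kept sides do not measure how steady the calls were. In ONC-J against WT, with 2 members called, 16 alternatives lost a call.

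Same-numbered libraries were not treated as pairs: the labels give no shared origin and only 3 of 30 pairs had a correlation over 0.1 (range -0.091 to 0.182), while 8 of 15 libraries correlated best with their own number, a hint from the data and not from the design. With a replicate block 0 members were called in ONC against WT, 1 in ONC-F against WT, 2 in ONC-J against WT, 11 in ONC-S against WT, 0 in ONC-F against ONC, 0 in ONC-J against ONC, 6 in ONC-S against ONC, 7 in ONC-F against ONC-S, 8 in ONC-J against ONC-S and 5 in the crushed groups against WT. The members gained were Grin1 in ONC-S against WT, Grin2b in ONC-J against ONC-S and Grm8 in the crushed groups, and calls over all genes in these fits rose from 4479 to 4837, from 2484 to 2848 and from 1459 to 1723.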
